A study of Homo sapiens with 6 samples.

Results

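PPP1R16B and its closest relatives encode subunits of protein phosphatase 1 (PP1), and their RNA was followed in AALE cells with and without forced expression of NRG1. The set holds 8 genes of the 57736 in the deposited count table: the membrane-bound targeting subunits PPP1R16B and PPP1R16A, the myosin phosphatase targeting subunits PPP1R12A, PPP1R12B and PPP1R12C, and the catalytic subunits PPP1CA, PPP1CB and PPP1CC. PPP1R16B was chosen by its measured CPM (its count scaled to the library total), which was higher in each NRG1 library than in any control, so its own difference between the groups is a description and was given no test. The other 7 genes were taken by name, as its paralogs and partners. All 8 had rows in the table and passed the filter on low counts.

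AALE is an established line of human bronchial basal epithelial cells that carries SV40 genes and hTERT, the catalytic subunit of telomerase. The control group was 3 libraries of cells with a lentiviral control vector, and the NRG1 group was 3 libraries of cells with a lentiviral vector that overexpresses NRG1, a growth factor that binds receptors of the ERBB family. Both groups were stable selected pools of transduced cells grown in small airway epithelial medium, so both carry the immortalising genes and a lentivirus. PolyA RNA was sequenced, and the series asks how NRG1 alters gene expression in airway epithelial cells. Nothing in the labels states whether the replicates were separate cultures, so a p-value reflects only how these libraries varied, and that variation may be technical.

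PP1 removes phosphate from serine and threonine residues of many proteins, and its catalytic subunit finds most of its substrates through a regulatory subunit. In myosin phosphatase, a targeting subunit of the PPP1R12 family holds the catalytic subunit PPP1CB at the regulatory light chain of myosin II, which lowers contractility and opposes myosin light chain kinase. PPP1R16B, also called TIMAP (TGF-beta-inhibited membrane-associated protein), and PPP1R16A, also called MYPT3, share the ankyrin repeats and the PP1-binding motif of that family, but are anchored to membranes by a lipid at their C-terminal end. PPP1R16B is best known from endothelial cells, where it acts on the cell barrier and on the ERM protein moesin.

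The total expected count ran from 8612234 to 13207620 per library, and levels are given as CPM scaled by the TMM method. NRG1 itself had 11.6, 7.87 and 12.3 CPM in control 1 to 3, against 6647, 3854 and 3781 CPM in NRG1 1 to 3. It rose, with a log2 fold change of 8.80 (SE 0.38). By the quasi-likelihood test of edgeR, with p-values adjusted over all genes by the Benjamini-Hochberg method, the adjusted p was 0.00012. NRG1 was the 1 gene of 15421 tested, or 0.00648%, that passed an adjusted p of 0.05. Control 3 and NRG1 1 were the most distant from their groups: their median absolute log2 distance from the mean of the other libraries of the group was 0.405 and 0.371, against 0.202 to 0.279 for the remaining libraries. For some genes the value or call without them is given too.

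Because the counts were estimated by sharing reads among genes that fit them, the members' transcripts were compared with each other in the GENCODE 29 sequences. PPP1R16B and PPP1R16A matched at 64.4% of 1567 aligned coding bases, yet their longest exact common run was 15 bases. Over the 7 comparisons of PPP1R16B with another member the longest run was 12 to 15 bases, and over all 28 pairs it was at most 23 bases, between PPP1CB and PPP1CC. The catalytic subunits are the closest of the members, with 73.8% of aligned coding bases identical for PPP1CA and PPP1CB, 74.8% for PPP1CA and PPP1CC and 76.6% for PPP1CB and PPP1CC. The longest coding run shared by PPP1CA, PPP1CB and PPP1CC is 18 bases and lies in exon 5 of each principal transcript. It is shown in capitals with 20 bases on either side, while the longest run shared by a single pair reaches 23 bases:
PPP1CA: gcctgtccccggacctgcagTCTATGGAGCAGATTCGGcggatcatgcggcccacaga
PPP1CB: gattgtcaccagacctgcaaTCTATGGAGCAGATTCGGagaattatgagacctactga
PPP1CC: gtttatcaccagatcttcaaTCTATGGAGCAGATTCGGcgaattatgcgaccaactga
In GRCh38 these coding stretches are chr11:67399106-67399163 on the minus strand for PPP1CA, chr2:28783907-28783964 on the plus strand for PPP1CB and chr12:110722638-110722695 on the minus strand for PPP1CC. A read longer than 23 bases therefore cannot match the protein-coding transcripts of a pair of members exactly in the same orientation. Matches between opposite strands were not searched. PPP1R12A and PPP1CB also overlap or adjoin RNA genes read from the other strand, and the kit named in the labels does not mark strand. Few reads were assigned to those partners: PPP1R12A-AS1 held 1.24 to 16.2 expected counts per library, PPP1R12A-AS2 held 0 to 8.80 and PPP1CB-DT held 6 to 14. Since reads that fit both genes are shared by estimate, these counts do not show how many came from the partners.

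PPP1R16B had 15.1, 15.3 and 11.9 CPM in control 1 to 3, against 51.5, 90.1 and 80.2 CPM in NRG1 1 to 3. Behind these levels stood 152 to 187 expected counts per control library and 417 to 964 per NRG1 library. The groups did not overlap, and the lowest NRG1 library was 3.36 times the highest control. NRG1 1, which had the highest NRG1 level of the 3, had the lowest PPP1R16B level of the 3. The control mean was 14.1 ± 1.92 CPM and the NRG1 mean 73.9 ± 20.01 CPM (SD, n = 3), a ratio of 5.24, and the fitted log2 fold change was 2.39 (SE 0.26). These are the values that chose the gene. For scale, all NRG1 libraries lay above all controls in 9.36% of the tested genes, and in 2.89% the fitted log2 difference was 1 or more. The fitted value ran from 2.23 to 2.60 when each library was left out in turn and was 2.49 without both control 3 and NRG1 1. In RNA from a whole culture, more cells with the transcript and more transcript per cell cannot be told apart.

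**Figure D1:**
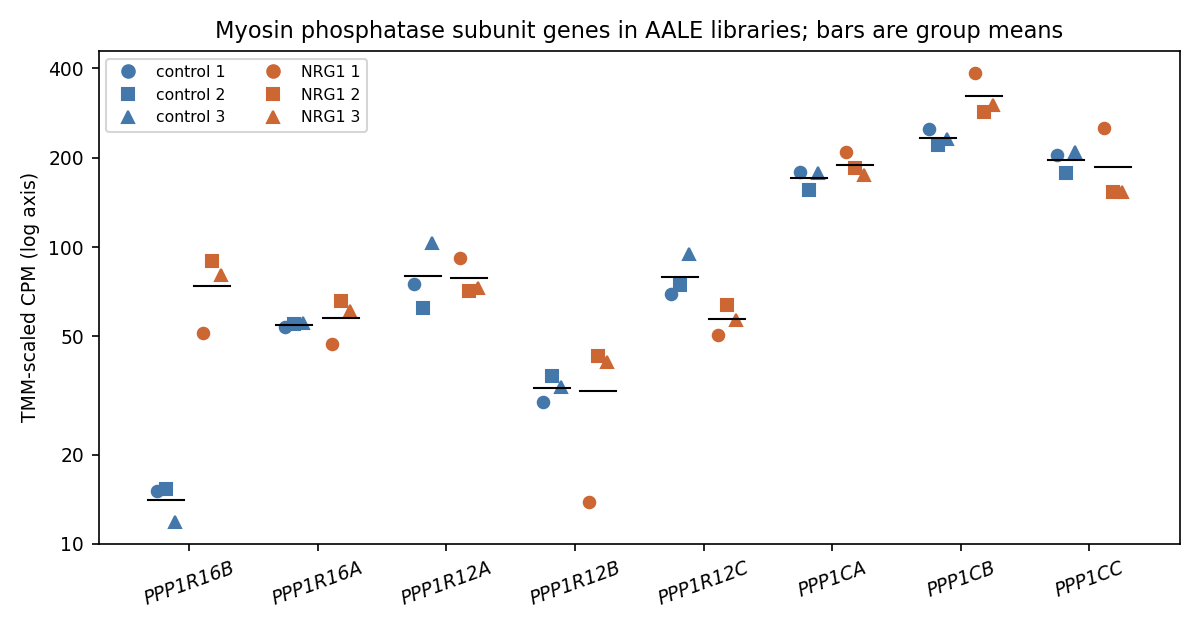
TMM-scaled CPM of the 8 genes (log axis) in each library, control in blue and NRG1 in orange, with a black bar at each group mean. PPP1R16B lies between 11.9 and 15.3 CPM in the controls and between 51.5 and 90.1 CPM in the NRG1 libraries, while the groups of PPP1R16A, PPP1R12A, PPP1R12B, PPP1CA and PPP1CC overlap.

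The closest paralog, PPP1R16A, did not show this separation. It was at 54.0, 54.9 and 55.3 CPM in the controls and at 47.0, 65.6 and 60.9 CPM in NRG1 1 to 3. The controls lay close together and the NRG1 libraries on both sides of them. Its log2 fold change was 0.08 (SE 0.18), with a 95% interval from -0.33 to 0.49 and an adjusted p of 0.873 by edgeR.

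The PPP1R12 genes encode the targeting subunits that bring PP1 to myosin. PPP1R12A, the widely expressed MYPT1, was at 74.8, 62.3 and 103 CPM in the controls and at 92.1, 71.4 and 72.6 CPM in NRG1 1 to 3. The groups overlapped throughout, with a log2 fold change of -0.03 (SE 0.22, 95% interval -0.53 to 0.48, adjusted p = 0.968 by edgeR). PPP1R12B, or MYPT2, known mainly from heart, skeletal muscle and brain, was at 30.1, 36.7 and 33.7 CPM in the controls and at 13.8, 43.1 and 41.1 CPM in NRG1 1 to 3. NRG1 1 lay below every control and the other NRG1 libraries above every control, so the log2 fold change of -0.03 (SE 0.38, adjusted p = 0.98 by edgeR) averaged opposite differences. Without NRG1 1 it was 0.33 (adjusted p = 0.361), and without both control 3 and NRG1 1 it was 0.34 (adjusted p = 0.175).

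PPP1R12C, which encodes the related subunit MBS85, was at 69.2, 74.6 and 94.8 CPM in the controls and at 50.4, 63.7 and 57.0 CPM in NRG1 1 to 3. All NRG1 libraries lay below all controls, by a log2 fold change of -0.48 (SE 0.19, 95% interval -0.90 to -0.05). The unadjusted p was 0.0314 and the adjusted p over all genes 0.395 by edgeR, so the gene did not pass. The value was -0.34 without control 3, the highest control, and -0.25 without both control 3 and NRG1 1.

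Among the catalytic subunits, PPP1CB, the partner of the PPP1R12 subunits in myosin phosphatase, was at 249, 221 and 231 CPM in the controls and at 385, 286 and 299.9 CPM in NRG1 1 to 3. The groups did not overlap, though the lowest NRG1 library was only 1.15 times the highest control. Its log2 fold change was 0.47 (SE 0.16, 95% interval 0.10 to 0.84), with an unadjusted p of 0.0184 and an adjusted p of 0.359 by edgeR. It was 0.33 without NRG1 1, the highest library, and 0.32 without both control 3 and NRG1 1. PPP1CA, the alpha catalytic subunit, was at 178, 156 and 178 CPM in the controls and 209, 185 and 174 CPM in NRG1 1 to 3, with a log2 fold change of 0.15 (SE 0.15, adjusted p = 0.682 by edgeR). PPP1CC, the gamma catalytic subunit, was at 204, 178 and 209 CPM in the controls and at 252, 153 and 153 CPM in NRG1 1 to 3. As for PPP1R12B, the NRG1 libraries of PPP1CC lay on both sides of the controls, here with NRG1 1 above and the others below. Its log2 fold change was -0.08 (SE 0.22, adjusted p = 0.897 by edgeR). Without NRG1 1 it was -0.37 (adjusted p = 0.238), and without both control 3 and NRG1 1 it was -0.32 (adjusted p = 0.109).

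Of the 7 genes other than PPP1R16B, 0 passed edgeR's quasi-likelihood test, against 0.00648% of all genes tested, and 0 passed DESeq2, which called 1.36% of all genes. At an unadjusted p under 0.05 there were 2 of the 7, against 11.8% of all genes: PPP1CB, higher, as were 5.08% of all genes, and PPP1R12C, lower, as were 6.72%. The same 2 genes were those whose groups did not overlap, which held for 19.6% of all genes, 9.36% with NRG1 above and 10.2% with NRG1 below. With control 3 and NRG1 1 both left out, where edgeR called 9.82% of all genes, 0 of the 7 passed. The 95% intervals nevertheless admit changes of up to 0.84 log2 units up, for PPP1CB and PPP1R12B, and 0.90 down, for PPP1R12C, so a p above the threshold does not show equal levels.

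**Figure D2:**
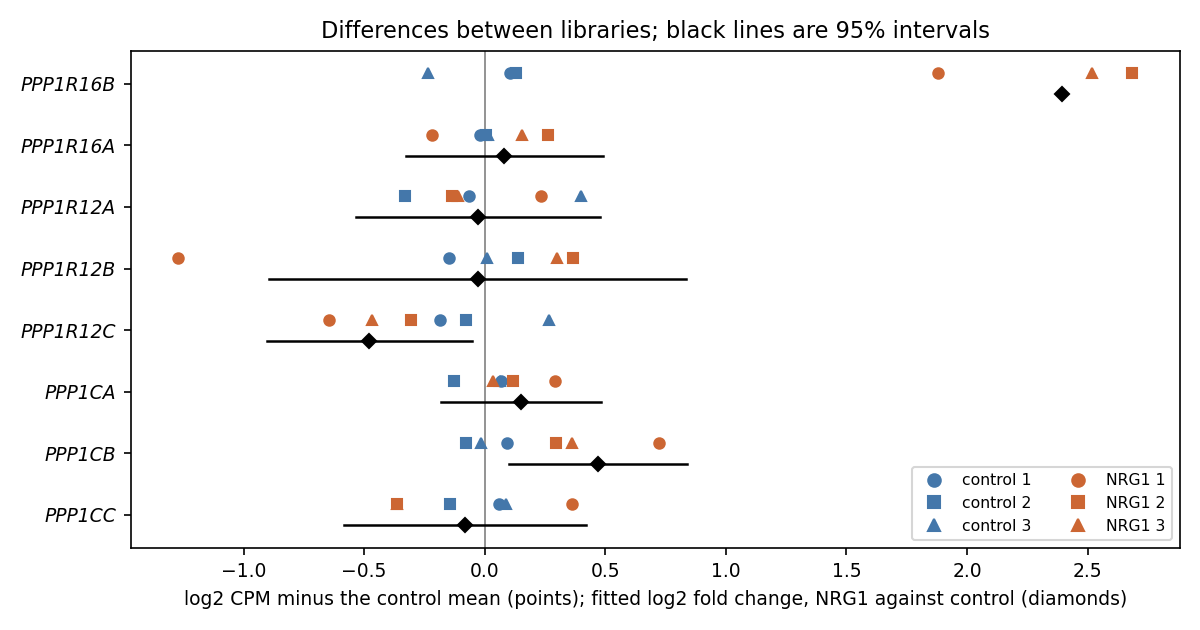
Points show log2 CPM of each library minus the mean of the controls, and black diamonds the fitted log2 fold change of NRG1 against control with its 95% interval, which is left out for PPP1R16B because that gene was chosen for this difference. The NRG1 libraries of PPP1R16B lie far to the right of all other points, and the intervals of PPP1R12C (-0.90 to -0.05) and PPP1CB (0.10 to 0.84) are the ones that do not reach 0 before adjustment over all genes.

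To set levels of different genes side by side, CPM was divided by the kilobases of sequence covered by the exons of each gene in GENCODE 29. On this scale the catalytic subunits were the most abundant in the controls, PPP1CA at 63.0 ± 4.77, PPP1CB at 40.5 ± 2.47 and PPP1CC at 28.5 ± 2.43 CPM per kilobase (SD, n = 3). PPP1R12C at 10.3 ± 1.75 and PPP1R16A at 10.1 ± 0.121 CPM per kilobase followed and overlapped each other. PPP1R12A was at 6.71 ± 1.76, PPP1R16B at 2.20 ± 0.300 and PPP1R12B at 1.59 ± 0.156 CPM per kilobase, so PPP1R16B ranked 7 of 8. In the NRG1 libraries PPP1R16B was at 11.6 ± 3.13 CPM per kilobase, within the spread of PPP1R16A at 10.7 ± 1.79, and ranked 4 of 8. The ranks depend on the length used. With the length of the principal transcript alone PPP1R16B ranked 7 of 8 in both groups, at 2.26 ± 0.307 and 11.8 ± 3.202 CPM per kilobase. By that length PPP1R16B held 8.25 to 14.4 CPM per kilobase in NRG1, below every NRG1 library of PPP1R16A (17.3 to 24.1). The mean of PPP1CC lay above that of PPP1CB in both groups, though in NRG1 3 PPP1CB was the higher.

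The make-up of the RNA for the 5 targeting subunits is a description too, since the share of PPP1R16B rests on the CPM that chose it. In control 1 to 3 it made up 8.12%, 8.22% and 5.37% of their summed CPM per kilobase, against 25.5%, 33.1% and 32.0% in NRG1 1 to 3. With principal transcript lengths the shares were lower, from 2.54% to 3.995% in control and from 13.8% to 19.1% in NRG1. The share of PPP1R12C was 30.9% to 35.5% in control and 18.8% to 20.6% in NRG1, and part of that difference follows by construction from the larger PPP1R16B share. Among the catalytic subunits, the share of PPP1CB was 29.5% to 31.55% in control and 35.46% to 37.6% in NRG1. The share of PPP1CC was 21.18% to 22.2% in control, 20.3% in NRG1 1, and 15.8% and 16.0% in the other NRG1 libraries. The summed level of the targeting subunits was 28.99, 29.2 and 34.6 CPM per kilobase in control 1 to 3, against 31.6, 42.5 and 39.2 in NRG1 1 to 3, so the groups overlapped at NRG1 1.

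**Figure D3:**
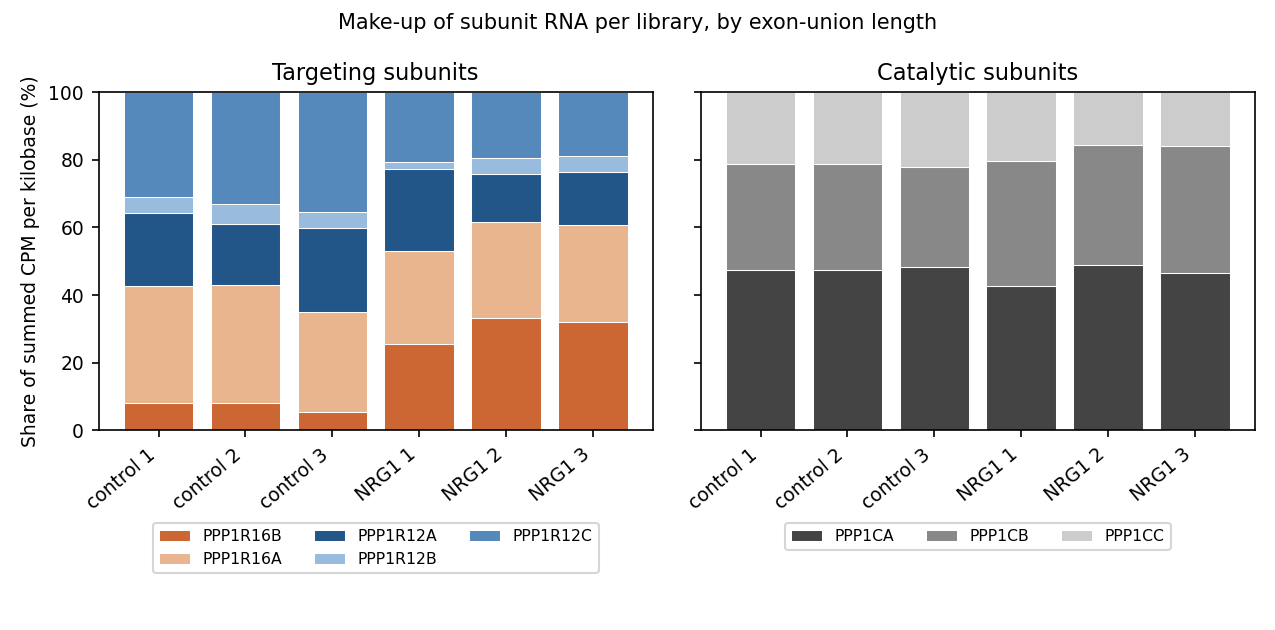
Stacked bars give the share, in percent, of each gene in the summed CPM per kilobase (exon-union length) of the 5 targeting subunits (left) and the 3 catalytic subunits (right) in each library. The PPP1R16B segment takes 5.37% to 8.22% in the controls and 25.5% to 33.1% in the NRG1 libraries.

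The genes around the phosphatase were described in lists. Among its inhibitors and kinases 8 of the 11 genes with a row were tested. Of these, 0 passed edgeR and 0 passed DESeq2, against 0.00648% and 1.36% of all genes. PPP1R14B lay above every control in all NRG1 libraries, as did 9.36% of all genes. DAPK3 and NUAK1 lay below every control, as did 10.2%. At an unadjusted p under 0.05 there was 1 higher gene and 1 lower gene, against 5.08% and 6.72% of all genes. The median log2 fold change was 0.13, beside 0.00034 over all genes tested. PPP1R14B, an inhibitor of the PP1 holoenzyme related to CPI-17, was at 114, 115 and 106 CPM in the controls and 157, 145 and 133 CPM in NRG1 1 to 3 (log2 fold change 0.38, SE 0.14, adjusted p = 0.387). DAPK3, a kinase that phosphorylates MYPT1 and myosin light chains, was at 49.0, 45.7 and 87.9 CPM in the controls and 39.7, 34.7 and 35.5 CPM in NRG1 (log2 fold change -0.74, SE 0.27, adjusted p = 0.377). The value for DAPK3 ran from -0.90 to -0.38 when each library was left out, and was closest to 0 without control 3. NUAK1, another kinase acting on MYPT1, had a log2 fold change of -0.56 (SE 0.30), which was -0.31 without control 1.

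The list of myosin II heavy and light chains and light chain kinase, all 8 tested, went both ways. In edgeR 0 passed, against 0.00648% of all genes. At an unadjusted p under 0.05 there were 2 higher and 2 lower genes, against the same 5.08% and 6.72%. The median was -0.25, and DESeq2 called 1 higher and 1 lower gene, against 1.36% of all genes. MYL9, a regulatory light chain of contractile cells and a substrate of myosin phosphatase, was at 16.9, 42.0 and 33.2 CPM in the controls and 7.79, 4.95 and 3.80 CPM in NRG1 1 to 3. Its groups did not overlap, with a log2 fold change of -2.49 (SE 0.41). The adjusted p was 0.17 in edgeR and 3.84e-06 in DESeq2. MYL12A, a light chain of nonmuscle myosin, had one of -0.49 (SE 0.20, adjusted p = 0.411 in edgeR). MYLK, the myosin light chain kinase, was at 31.6, 25.3 and 19.9 CPM in the controls and 48.0, 47.8 and 44.8 CPM in NRG1 1 to 3, above every control, with a log2 fold change of 0.87 (SE 0.21) and an adjusted p of 0.301 in edgeR and 0.0314 in DESeq2. Without control 3 and NRG1 1, edgeR called 4 of the 8, against 9.82% of all genes: MYL9 and MYL12A as lower, and MYLK and the heavy chain MYH14 as higher. MYH14 was chosen after its values were seen: it held 27.9 to 56.7 CPM in the controls and only 23.0 CPM in NRG1 1, but 146 CPM in NRG1 2 and 149.8 CPM in NRG1 3.

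Proteins that link membranes to actin or are bound by the targeting subunits made up a list of 6, all tested. Their median log2 fold change was 0.22. In this list 0 passed edgeR and 0 passed DESeq2, against 0.00648% and 1.36% of all genes. At an unadjusted p under 0.05 there were 0, against 11.8%. For 2 of the 6, RPSA and EEF1A1, all NRG1 libraries lay above all controls, as in 9.36% of all genes. EEF1A1, a translation elongation factor that binds TIMAP, was at 9906, 10125 and 9416 CPM in the controls and 11757, 13711 and 13218 CPM in NRG1 1 to 3 (log2 fold change 0.39, SE 0.19, adjusted p = 0.443). For RPSA, the laminin receptor and ribosomal protein SA, the log2 fold change was 0.27 (SE 0.14), and for the ERM protein RDX it was 0.26 (SE 0.19), with 199 CPM in NRG1 1 against 126 to 137 CPM in all other libraries. Without NRG1 1 the log2 fold change of RDX was 0.029. MSN, or moesin, named after its values were seen, had 408, 178 and 331 CPM in the controls and 392, 162 and 154 CPM in NRG1 1 to 3. Its groups overlapped, with a log2 fold change of -0.37 (SE 0.42).

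Other regulatory subunits of PP1 gave a wider comparison: 26 of 35 were tested, and the median was -0.16. In edgeR 0 passed, against 0.00648% of all genes. At an unadjusted p under 0.05 there were 2 higher and 3 lower genes, against 5.08% and 6.72% of all genes. PHACTR3, a nuclear scaffold protein that binds PP1 and actin, was at 8.06, 5.25 and 4.25 CPM in the controls and at 49.4, 23.3 and 24.97 CPM in NRG1 1 to 3. Like PPP1R16B, PHACTR3 was higher in every NRG1 library, but with its highest level in NRG1 1, where PPP1R16B had its lowest of the group. Its log2 fold change was 2.47 (SE 0.39). The adjusted p was 0.166 in edgeR and 8.04e-07 in DESeq2. PPP1R9A, the actin-binding subunit neurabin, was at 2.42, 4.74 and 3.63 CPM in the controls and 6.43, 14.8 and 14.7 CPM in NRG1 (log2 fold change 1.76, SE 0.41, adjusted p = 0.282 in edgeR and 0.013 in DESeq2). PPP1R3C, which targets PP1 to glycogen, was lower in every NRG1 library, at 17.3, 15.0 and 13.5 CPM in the controls and 8.04, 6.54 and 7.06 CPM in NRG1 (log2 fold change -1.09, SE 0.25, adjusted p = 0.268 in edgeR and 0.0123 in DESeq2). DESeq2 called these 3 genes of the list, 2 higher and 1 lower, against 1.36% of all genes. In the comparison without control 3 and NRG1 1, edgeR called the same 3 of the 26, a share near the 9.82% of all genes.

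As its name says, TIMAP is known as a gene repressed by TGF-beta, so a short list of genes induced by TGF-beta was set beside it. All 9 genes were tested and 9 had a log2 fold change below 0, against 50% of all genes, with a median of -1.01. Of these, 4 lay below every control in all NRG1 libraries, against 10.2% of all genes. Some of the others were far higher in control 3 than in the remaining controls. SKIL had 60.7, 52.9 and 237 CPM in the controls and 60.8, 43.6 and 46.2 CPM in NRG1 1 to 3. SMAD7 had 90.0 CPM in control 3 against 10.9 to 21.8 CPM elsewhere, and CCN2 had 126 CPM in control 3 and 108 CPM in NRG1 1 against 3.80 to 20.2 CPM elsewhere. SKIL, SMAD7 and CCN2 were picked out after their values were seen. edgeR called 0 and DESeq2 called 3, all lower, against 0.00648% and 1.36% of all genes in either direction. At an unadjusted p under 0.05 edgeR gave 5 lower genes, against 6.72% of all genes. Without control 3 and NRG1 1, edgeR called 6 of the 9 as lower, against 9.82% of all genes in either direction. CCN2 was among these 6, while SKIL and SMAD7 were not. In the libraries kept, CCN2 held 16.4 and 20.2 CPM in control and 4.11 and 3.80 CPM in NRG1. TAGLN, an actin-binding protein, had 15.3, 19.5 and 20.4 CPM in the controls and 3.09, 4.67 and 5.10 CPM in NRG1 1 to 3, below every control. Its log2 fold change was -2.09 (SE 0.29). For COL4A1, a basement membrane collagen, it was -1.20 (SE 0.22), and for TGFBI, an extracellular matrix protein, -1.01 (SE 0.26). Adjusted p-values by edgeR were 0.113 for TAGLN, 0.198 for COL4A1 and 0.315 for TGFBI. Lower levels of this list were known from earlier results on these libraries when it was written, and its part in the PPP1R16B difference was not tested.

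**Figure D4:**
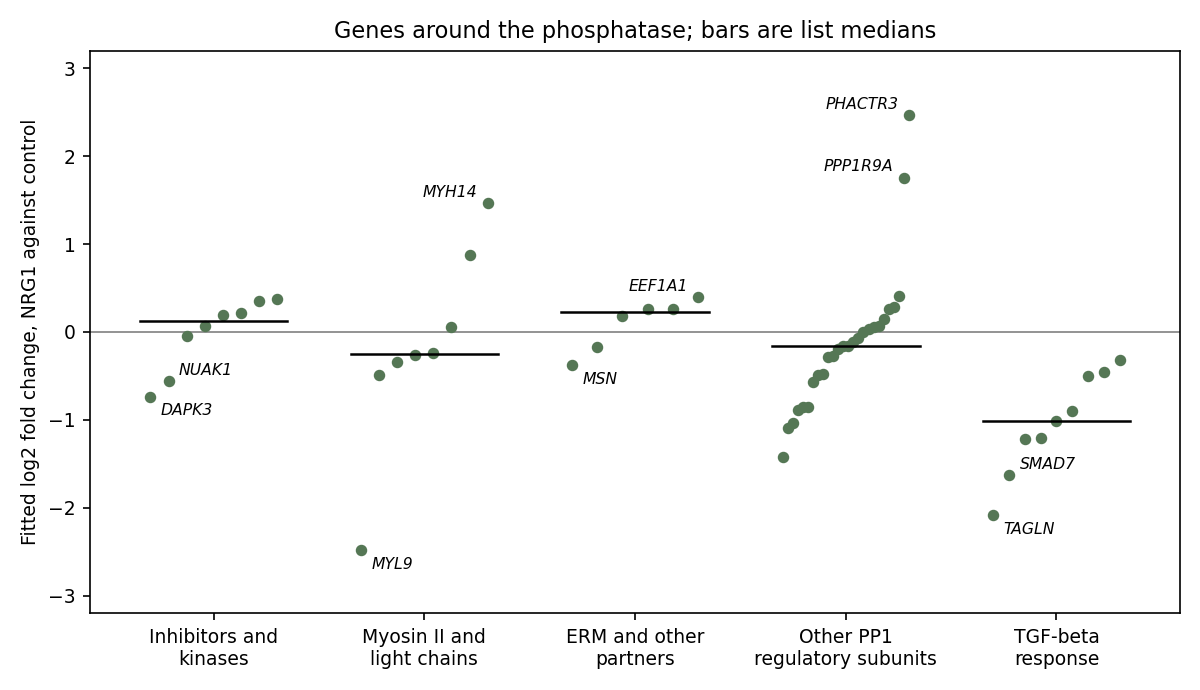
Each point is the fitted log2 fold change of a tested gene, NRG1 against control, in 5 lists around the phosphatase, and black bars are list medians (0.13, -0.25, 0.22, -0.16 and -1.01 from left to right). PHACTR3 at 2.47 and PPP1R9A at 1.76 are the highest of the other PP1 regulatory subunits, and MYL9 at -2.49 is the lowest gene of the myosin list.

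The protein-coding genes on either side of PPP1R16B on chromosome 20 did not share its separation. ACTR5, a subunit of the INO80 chromatin remodeller and the nearest protein-coding gene before it, was at 28.9, 30.6 and 34.6 CPM in the controls and 35.4, 32.8 and 33.7 CPM in NRG1 1 to 3 (log2 fold change 0.11, SE 0.18). FAM83D, a spindle protein gene just after it, was at 83.8, 65.2 and 60.4 CPM in the controls, 120 CPM in NRG1 1 and 51.7 and 50.6 CPM in the other NRG1 libraries (log2 fold change 0.08, SE 0.34). FAM83D was therefore highest in the NRG1 library in which PPP1R16B was lowest of the 3. DHX35, an RNA helicase gene further on, had a log2 fold change of -0.21 (SE 0.18). SLC32A1, a vesicular transporter gene of inhibitory neurons before ACTR5, had 0 expected counts in all 6 libraries.

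Across the 6 libraries, the gene whose log2 CPM followed PPP1R16B most closely was CTNND1, which encodes p120 catenin of the adherens junction (Pearson r = 0.997). It was at 276, 278 and 253 CPM in the controls and 388, 435 and 445 CPM in NRG1 1 to 3. Next came SERPINB6, an intracellular serine protease inhibitor (r = 0.994), VPS35L, a subunit of an endosomal recycling complex (r = 0.993), EEF1A1 (r = 0.991) and LAMP1, a lysosomal membrane protein (r = 0.99). Their log2 fold changes were between 0.39 and 0.74, far below the 2.39 of PPP1R16B. The order of the 6 libraries was that of PPP1R16B in EEF1A1 and LAMP1 but not in CTNND1, SERPINB6 or VPS35L. The 6 points fall in groups that stand apart for PPP1R16B, and r was above 0.9 for 241 of 11670 genes at a mean of at least 5 CPM. Among the members, r with PPP1R16B was 0.73 for PPP1CB, 0.45 for PPP1CA, 0.41 for PPP1R16A, 0.018 for PPP1R12B, -0.19 for PPP1R12A, -0.43 for PPP1CC and -0.77 for PPP1R12C.

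Markers of endothelial cells and leukocytes were near absent. PECAM1 could not be matched to a row, and of 9 endothelial markers with a row 0 passed the filter on low counts. They summed to 18.2 to 33.3 expected counts per control library and 27.3 to 36 per NRG1 library, with CDH5, the cadherin of endothelial junctions, at 0 in all 6. The part of other cells in the PPP1R16B difference was not tested. Of 10 leukocyte markers 5 were at 0 in all 6 libraries, among them CD3D and CD3E of T cells, and PTPRC, the common leukocyte antigen, held 0 to 2 expected counts. The leukocyte markers summed to 64 to 124 expected counts per control library and 69.97 to 94 per NRG1 library, nearly all from CD14 and CORO1A, with fold changes of 0.83 and -0.72 on the log2 scale and overlapping groups. Leaving out each library gave 0.53 (without control 3) to 1.13 for CD14, and -1.27 (without NRG1 1) to -0.38 (without control 3) for CORO1A, which was also at -0.42 without NRG1 2. The 8 fibroblast markers summed to 443 to 877 expected counts per control library and 179 to 302 per NRG1 library, mostly COL1A1 and DCN. Of these markers 3 were tested and edgeR called 0, against 0.00648% of all genes. All 3 had a log2 fold change below 0, against 50% of all genes. COL1A1 and DCN lay below every control in all NRG1 libraries, as did 10.2% of all genes. DESeq2 called DCN as lower (adjusted p = 0.0115), against 1.36% of all genes. Without control 3 and NRG1 1, DCN was also called by edgeR, against 9.82% of all genes. The 7 airway basal epithelial markers were all tested and summed to 8423 to 12131 CPM in control and 5854 to 6944 CPM in NRG1. KRT5 and KRT17 together made up most of that sum. The groups of KRT5 overlapped, at 3302 to 6952 CPM in control and 3141 to 3883 CPM in NRG1. KRT17 held 2596 to 3140 CPM in control and 1368 to 1483 CPM in NRG1. Of the 7, edgeR called 0, against 0.00648% of all genes, and the median log2 fold change was -0.00041. KRT14 and KRT17 lay below every control in all NRG1 libraries, as did 10.2% of all genes. EPCAM and CDH1 lay above every control, as did 9.36% of all genes, and TP63 and ITGA6 overlapped. DESeq2 called 2 of the 7, KRT14 and KRT17, both lower, against 1.36% of all genes. Without control 3 and NRG1 1, edgeR called KRT14 and KRT17 as lower and EPCAM and CDH1 as higher, against 9.82% of all genes. The part of these differences in that of PPP1R16B was not tested.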

How the data were processed

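The authors deposited expected counts per gene, not whole numbers and not normalized, and a table of log2 values. Per the submitters' processing notes, the build was hg19 and the tools were FastQC 0.11.3, MultiQC 0.9, STAR 2.5.3a and RSEM 1.3.0, with no roles stated. No annotation is named in those notes. The deposited log2 values, for 14759 genes, differed by at most 4.97e-14 from TMM-scaled log2 CPM (prior count 0.25) recomputed here.

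Expected counts were rounded, and the test was that of edgeR 4.0.16 under R 4.3.3 (TMM, filterByExpr, quasi-likelihood test, no covariate, Benjamini-Hochberg over 15421 genes, threshold 0.05), tried first on simulated counts. Symbols were matched on identifiers for 51959 of 57736 genes. Lengths and sequences came from GENCODE 29 (GRCh38). Total expected counts of 8612234 to 13207620 left PPP1R16B with at least 152 counts per library, and counting error adds to the spread of genes lower than this.

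Members and lists were chosen with earlier results of these data known, and a few genes of the lists are not reported here and were left out of the list counts. Named genes were NRG1, the members, up to 3 genes per list with the smallest edgeR p, the 5 genes most correlated with PPP1R16B (log2 CPM, prior count 2, mean of at least 5 CPM) and 2 coding neighbours on each side. Alternatives were DESeq2 1.42.0, upper-quartile scaling, library totals, no low-count filter, the replicate number as a block, limma 3.58.1 on the deposited log2 values and on log2(CPM + 1) and log2(CPM + 0.25), leaving out each library, and 2 against 2 libraries without control 3 and NRG1 1. Control 3 and NRG1 1 were picked for their distance from their groups, which makes p-values without them too small.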

Additional observations from a re-analysis of the deposited data

How the results depend on the processing

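The fitted log2 fold change of PPP1R16B stayed between 2.23 and 2.60 over 15 alternative settings. In those settings 0 of the 7 other members was called. The number of genes called in all, 1 in the reported fit, was 209 with DESeq2, 21 with no low-count filter, 2 with the replicate number as a block, 2 in limma on log2(CPM + 1), 2 on log2(CPM + 0.25) and 1515 in the comparison of 2 against 2 libraries; leaving out each library gave 1 to 37, the 37 without NRG1 1. The 21 called with no low-count filter, of 29827 genes tested, included MYL9, TAGLN and KRT17 as lower and PHACTR3 as higher. Their adjusted p by edgeR there was 0.0467, 0.0374, 0.00626 and 0.0432. The 37 called without NRG1 1 included KRT14 as lower (adjusted p = 0.0427 by edgeR). Same-numbered libraries did not deviate together (correlations of 0.020, 0.125 and -0.080), so the block was not taken as a pairing. Signs turned where the fold change was close to 0. With upper-quartile scaling PPP1R12A was at 0.026 and PPP1R12B at 0.026, and with 2 against 2 libraries they were at 0.070 and 0.34. Leaving out each library gave -0.18 to 0.19 for PPP1R12A, -0.28 to 0.33 for PPP1R12B, -0.37 to 0.040 for PPP1CC, -0.020 to 0.21 for PPP1R16A and -0.45 to 0.29 for FAM83D. FAM83D was also at -0.023 with the replicate block, at -0.025, -0.024 and -0.025 in limma on the deposited log2 values, log2(CPM + 1) and log2(CPM + 0.25), and at -0.54 with 2 against 2 libraries. Why these values moved was not tested. In the reported fit the endothelial markers fell below the filter on low counts, so they were not tested gene by gene there.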
